A study of Mus musculus with 7 samples.

Results

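The genes described here are 10 members of the antioxidant system that the transcription factor Nrf2 controls, chosen by name as glutathione, thioredoxin and NADPH genes, with Keap1 as the inhibitor of Nrf2. Every probe set annotated to 1 of these genes alone was taken. A probe set is a group of short probes on the array that together give 1 value for a transcript. Of the 10 genes, 8 had such a probe set (Nqo1, Gclc, Gclm, Txnrd1, Srxn1, Slc7a11, Gsr and Keap1), with 16 probe sets among them, out of 12393 genes with a probe set of their own. G6pdx was not listed, and all 5 probe sets of Prdx1 also name the predicted gene Gm21399, so neither gene counted among the measured members.

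CD11c-positive spleen cells, a fraction enriched for dendritic cells by magnetic sorting, were taken 7 days after mice had received an allogeneic stem cell transplant (day 7). There were 4 arrays from mice labelled wild type and 3 from mice labelled Atg16L1 hypomorphic, both genotypes on C57BL/6J. Age is given as 9 weeks in the sample labels and as 8 weeks in the series text. The product of Atg16l1 directs the lipidation of LC3 at forming autophagosomes. A hypomorphic allele lowers the activity of a gene without abolishing it. The labels do not say whether transplant donor, recipient or both carried the allele, nor whether the arrays stand for different animals. The p-values below thus measure only the spread between these 7 samples.

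Nrf2, encoded by Nfe2l2, is held in the cytoplasm and handed to degradation by Keap1, a sensor whose reactive cysteines are modified by oxidants and electrophiles. Once freed from Keap1, Nrf2 pairs with small Maf proteins and binds the antioxidant response element near genes for glutathione, thioredoxin and NADPH metabolism. The autophagy cargo receptor p62, encoded by Sqstm1, also binds Keap1, which is the known link between autophagy and this pathway. The comparison of the genotypes therefore asks whether the targets of Nrf2 differ in these cells after transplantation.

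The core of the antioxidant response element, written TGACNNNGC, was looked for on both strands in RefSeq promoter windows (build GRCm38.p6) that run from 250 bases before to 50 bases after a transcript's start. Windows were given for 8 of the 10 members (all but Gclc and Gsr), 10 windows in all, and 5 of these 8 genes held a match. Over all promoter windows, 12.4% held one, and 3781 of 27025 genes did. The 5 matches are shown because they hold the core letters of the element that Nrf2 is known to bind. They are printed 5′ to 3′ in the direction of the gene with the match in capitals, and each reads GCNNNGTCA because all 5 lie on the strand opposite to the gene.

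Gclm: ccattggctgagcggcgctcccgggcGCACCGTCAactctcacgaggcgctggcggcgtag
Txnrd1: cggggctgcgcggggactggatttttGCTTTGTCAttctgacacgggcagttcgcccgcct
Prdx1: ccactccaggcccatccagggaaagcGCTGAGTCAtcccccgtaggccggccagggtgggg
G6pdx: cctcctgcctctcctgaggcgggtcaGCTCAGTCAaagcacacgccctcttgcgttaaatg
Srxn1: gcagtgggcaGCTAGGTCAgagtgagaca

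The Gclm stretch is chr3:122245397-122245457 on the plus strand, with the match starting 134 bases before the transcript. The Txnrd1 stretch is chr10:82859088-82859148 on the plus strand, in 1 of the gene's 3 promoter windows, with the match starting 92 bases before the transcript. The other windows of Txnrd1 held no match. The Prdx1 stretch is chr4:116685440-116685500 on the plus strand, 133 bases before the start, and its match read on the opposite strand is TGACTCAGC. The G6pdx stretch is chrX:74428903-74428963 on the minus strand, 57 bases before the start. The Srxn1 stretch is chr2:152105542-152105570 on the plus strand, and its match starts 28 bases after the transcript's start. No match to these letters was found in the windows of Slc7a11, Nqo1 and Keap1. A match is a description of the letters, and binding was not measured.

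Values are log2 probe set values that had been normalized between arrays, with array medians from 5.46 to 5.53. Of 22625 probe sets tested, 0.00% passed an adjusted p of 0.05 (limma with Benjamini-Hochberg adjustment over all of them), while 1739 had an unadjusted p under 0.05. Atg16l1 itself had a wild-type mean of 7.30 ± 0.0924 (SD, n = 4) and a hypomorph mean of 6.86 ± 0.0912 (SD, n = 3), with no overlap (log2 change -0.45, limma adjusted p = 0.462). Dendritic cell markers were present, with 12 of 13 listed genes measured, and the summed linear signal of this list, on a log2 scale, ran from 12.95 to 13.21 over the wild-type arrays and from 13.02 to 13.47 over the hypomorph arrays. Markers of other cells gave signal too. Summed the same way, red pulp macrophage genes (11 of 12 measured) were at 14.53 to 15.34 and 15.12 to 15.35, neutrophil genes (9 of 10) at 15.77 to 15.92 and 15.19 to 15.91, and erythroid genes (8 of 12) at 11.50 to 12.20 and 9.54 to 12.36. The pancreatic acinar list (10 of 13) ran from 9.63 to 12.46 in wild type and from 9.53 to 10.64 in the hypomorph. In such a mixed sample, fewer cells of a type and less RNA per cell cannot be told apart.

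The Nrf2 targets and Keap1 had no common direction. With the brightest probe set of each gene, 4 of the 8 members had a positive and 4 a negative log2 change from wild type to hypomorph, against 49.2% positive over all 12393 genes, and the median change was 0.03 against -0.002. The changes ran from -0.40 (Nqo1) to 0.39 (Srxn1). Among the 4 negative ones were Keap1, the inhibitor of Nrf2, and Gclc, each at -0.02. No member probe set passed the threshold in the limma fit, with adjusted p from 0.644 to 0.984. Of the 16 probe sets, 10 had a positive change, against 50.7% of all probe sets. At an unadjusted p under 0.05 there was 1 of the 16, a probe set of Srxn1 that was higher, where 7.69% of all probe sets reached this (4.35% higher and 3.34% lower). It was also the only one of the 16 whose groups did not overlap, where 5.57% of all probe sets showed this (3.07% higher and 2.50% lower). For 11 of the 16 the 95% confidence interval lay within a 1.5-fold change in either direction, a limit chosen after the values were seen, compared with 85.0% of all probe sets. Without hypomorph replicate 2, 5 of the 16 had an unadjusted p under 0.05 (3 higher and 2 lower), where 13.2% of all probe sets did. Without hypomorph replicate 3 there were 2, where 6.48% of all did. The count was also 2 after centring each array on its median (7.36% of all), with trend and robust settings in limma (7.58%) and with replicate number as a block (8.23%). No member reached an adjusted p of 0.05 with either array left out.

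**Figure D1:**
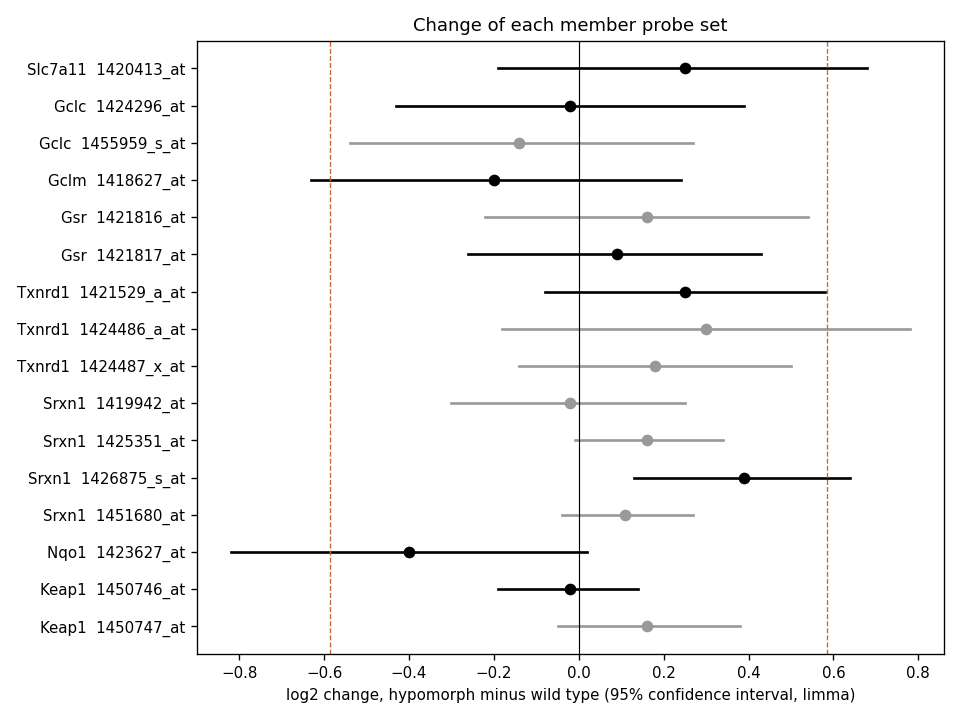
Log2 change from wild type to hypomorph (horizontal axis) for each of the 16 member probe sets, with 95% confidence intervals from limma over 4 and 3 arrays; black marks the brightest probe set of a gene, grey its others, and the dashed lines a 1.5-fold change. Only the interval of the Srxn1 probe set at 0.39 leaves out 0.

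In the thioredoxin branch, Srxn1 encodes sulfiredoxin, which repairs over-oxidised peroxiredoxins such as Prdx1. Its brightest probe set read 5.07, 5.39, 5.44 and 5.49 on the wild-type arrays and 5.66, 5.71 and 5.83 on the hypomorph arrays. All 3 hypomorph arrays lay above all 4 wild-type arrays, and the hypomorph level was 1.31-fold higher. The log2 change was 0.39 (95% confidence interval 0.13 to 0.64), with an unadjusted p = 0.00912 and an adjusted p = 0.644 in limma. An exact permutation test, two-sided, gave p = 0.0286, the smallest possible with 4 against 3 arrays. Leaving out each array in turn kept the change between 0.29 and 0.43. It came to 0.23 when 32 was added to the linear values and to 0.16 for the mean over the gene's probe sets (unadjusted p = 0.0169). The other probe sets of Srxn1 gave 0.16, 0.11 and -0.02, each with overlapping groups, so the gene's 4 probe sets differed in size and sign. The probe set at 0.16 was dim, with only 13.8% of all probe sets dimmer.

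Markers of stroma and endothelium also read higher in the hypomorph. All 7 of the 7 listed genes were measured and had positive changes, against 49.2% of all genes, and 3 of them were higher without overlap, where 3.07% of all probe sets were. Relative to the wild-type mean, the medians of this list were -0.22, 0.34, 0.02 and -0.04 on the wild-type arrays and 0.42, 0.24 and 0.41 on the hypomorph arrays, while Srxn1 was at -0.28, 0.04, 0.09 and 0.14 and at 0.31, 0.37 and 0.48. On wild-type replicate 2 the marker median was above that of hypomorph replicate 2, while Srxn1 was not. On a log2 scale the summed signal of the list ran from 7.66 to 8.22 over the wild-type arrays and from 8.44 to 8.54 over the others. Of these markers, 2 (Col1a1 and Col3a1) lay among the dimmest 25% of all probe sets. The part of these cells in the Srxn1 values was not tested.

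Txnrd1 encodes the cytosolic thioredoxin reductase, the selenoenzyme that uses NADPH to keep thioredoxin reduced. Its brightest probe set read 8.84, 8.83, 9.05 and 8.82 on the wild-type arrays and 9.41, 8.81 and 9.18 on the hypomorph arrays. Hypomorph replicates 1 and 3 were above every wild-type array and hypomorph replicate 2 was below all of them. The log2 change was 0.25 (95% confidence interval -0.08 to 0.58, unadjusted p = 0.113). It came to 0.41 when hypomorph replicate 2 was left out (unadjusted p = 0.00663, limma adjusted p = 0.181) and to 0.11 when replicate 1 was. The other probe sets of Txnrd1 gave 0.30 and 0.18, so all 3 were positive, and without hypomorph replicate 1 they gave 0.11 and 0.01. The probe set at 0.18 had the same value on 4 of the 7 arrays, which limits what it can show.

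Prdx1, the peroxiredoxin that reduces hydrogen peroxide with electrons from thioredoxin, could not be told apart from Gm21399. Its 5 shared probe sets read from 8.35 to 11.97 over the arrays, and their log2 changes lay between -0.04 and 0.08. The widest limits of their 95% confidence intervals were -0.19 and 0.28, and the smallest unadjusted limma p was 0.386. The signal shared by both genes therefore differed by less than the spread between arrays.

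Genes of glutathione synthesis had no common direction. Gclc encodes the catalytic and Gclm the modifier subunit of glutamate-cysteine ligase, the rate-limiting enzyme of this synthesis. Gclm read 9.64, 9.89, 9.61 and 9.60 on the wild-type arrays and 9.25, 9.97 and 9.25 on the hypomorph arrays. Hypomorph replicates 1 and 3 were below every wild-type array, and hypomorph replicate 2 was above all of them. The log2 change was -0.20 (95% confidence interval -0.63 to 0.24, unadjusted p = 0.324). Leaving out hypomorph replicate 2 gave -0.44 (unadjusted p = 0.00435, limma adjusted p = 0.168), and leaving out hypomorph replicate 1 or 3 gave -0.07.

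Gclc read 8.61, 8.79, 8.34 and 8.42 on the wild-type arrays and 8.54, 8.86 and 8.17 on the hypomorph arrays with its brightest probe set. Its highest and lowest arrays were both hypomorph, replicates 2 and 3. Its log2 change came to -0.02 (95% confidence interval -0.43 to 0.39), to 0.16 with hypomorph replicate 3 left out and to -0.19 with replicate 2 left out. The other probe set read 8.35, 8.53, 8.14 and 8.06 on the wild-type arrays and 8.17, 8.44 and 7.78 on the hypomorph arrays, a change of -0.14 (-0.54 to 0.27). Both probe sets were therefore highest on wild-type replicate 2 or hypomorph replicate 2 and lowest on hypomorph replicate 3.

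Erythroid markers followed a similar course over the arrays as Gclc and Gclm. The medians of the 8 measured erythroid genes, relative to the wild-type mean, were 0.12, 0.43, -0.28 and -0.20 on the wild-type arrays and -0.83, 0.60 and -2.02 on the hypomorph arrays. On the same arrays Gclm was at -0.05, 0.21, -0.07 and -0.09, and at -0.44, 0.29 and -0.44. Gclc was at 0.07, 0.25, -0.20 and -0.13, and at 0.00, 0.32 and -0.37. Of the erythroid markers, 1 (Hba-a1) lay among the dimmest 25% of all probe sets. The part of erythroid cells in the values of these genes was not tested.

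**Figure D2:**
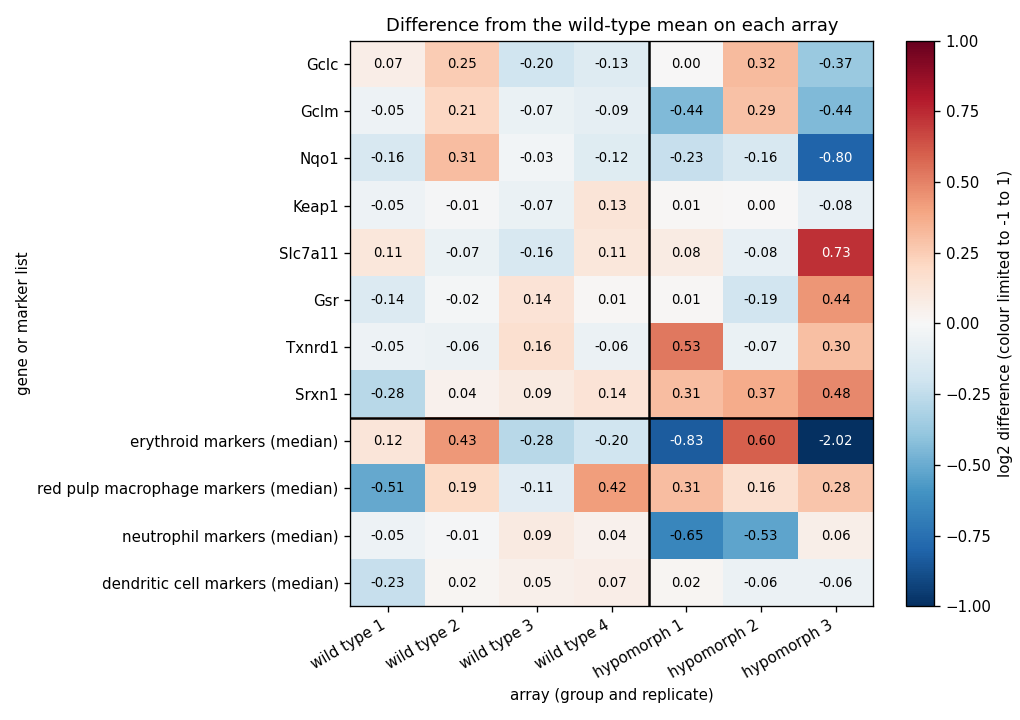
Log2 difference from the wild-type mean (colour and printed value) for the brightest probe set of each member and for the median of 4 marker lists (rows) on each of the 7 arrays (columns). Gclc, Gclm and the erythroid markers were above 0 on wild-type replicate 2 and hypomorph replicate 2 and below 0 on hypomorph replicate 3, where Slc7a11, Gsr and Srxn1 were at their highest.

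Slc7a11 encodes the light chain of the cystine and glutamate exchanger that brings in cystine for glutathione. It read 3.67, 3.49, 3.40 and 3.67 on the wild-type arrays and 3.64, 3.48 and 4.29 on the hypomorph arrays. Hypomorph replicate 3 stood above all other arrays, and the other two hypomorph arrays lay within the wild-type range. The log2 change was 0.25 (95% confidence interval -0.19 to 0.68, unadjusted p = 0.230). It came to 0.00 without hypomorph replicate 3 and to 0.41 without hypomorph replicate 2 (unadjusted p = 0.067). Plasma cell markers, of which 3 of 4 were measured, also stood highest on hypomorph replicate 3. Their medians were -0.14, 0.04, 0.20 and 0.16 over the wild-type arrays and 0.40, 0.08 and 0.87 over the hypomorph arrays. Their summed signal on a log2 scale ran from 8.58 to 9.71 and from 9.63 to 10.60, with 1 marker (Tnfrsf17) among the dimmest 25%. Their part in the Slc7a11 values was not tested. Only 30.5% of all probe sets were dimmer, so this probe set lay near the lower end of the scale. Slc3a2, the heavy chain that carries Slc7a11 and other transporters to the cell surface, had means of 9.00 ± 0.0553 (wild type, SD, n = 4) and 9.14 ± 0.0295 (hypomorph, SD, n = 3). It had no overlap between the groups, a log2 change of 0.14 (-0.01 to 0.28) and an adjusted p = 0.644 in limma.

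Gsr encodes glutathione reductase, which regenerates reduced glutathione from its disulfide with NADPH. Its brightest probe set read 10.20, 10.31, 10.47 and 10.34 on the wild-type arrays and 10.34, 10.14 and 10.77 on the hypomorph arrays. The highest and the lowest array were again hypomorph replicates 3 and 2. This gave a log2 change of 0.09 (95% confidence interval -0.26 to 0.43), and -0.09 without hypomorph replicate 3. The other probe set had a change of 0.16 (-0.22 to 0.54), and -0.03 without that array. Both intervals lay within a 1.5-fold change.

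Nqo1 encodes a quinone reductase that is widely used as a readout of Nrf2 activity, and it had the lowest log2 change of the 8 members. It read 5.52, 5.99, 5.65 and 5.57 on the wild-type arrays and 5.45, 5.52 and 4.89 on the hypomorph arrays. All 3 hypomorph arrays lay below the wild-type mean, hypomorph replicate 2 had the same value as wild-type replicate 1, and hypomorph replicate 3 was the lowest of all. The level was 1.32-fold lower in the hypomorph, with a log2 change of -0.40 (95% confidence interval -0.82 to 0.02). The unadjusted p was 0.0588 and the adjusted p = 0.644 in limma, with an exact two-sided permutation p of 0.0571. Without hypomorph replicate 3 the change was -0.20, and without hypomorph replicate 2 it was -0.52. Among the wild-type arrays Nqo1 was highest on replicate 2, as the erythroid markers were. Both were lowest of all on hypomorph replicate 3. Relative to the wild-type mean, Nqo1 was at -0.23, -0.16 and -0.80 on the hypomorph arrays. The erythroid medians were at -0.83, 0.60 and -2.02 there, so hypomorph replicate 2 differed in sign. The part of erythroid cells in the Nqo1 values was not tested. Nqo1 and Srxn1, both targets of Nrf2 in many cells, had changes of opposite sign.

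Neither probe set of Keap1 passed the test. Its brighter probe set read 6.88, 6.91, 6.86 and 7.06 on the wild-type arrays and 6.93, 6.93 and 6.85 on the hypomorph arrays, so the hypomorph values fell almost wholly inside the wild-type range. The log2 change was -0.02 (95% confidence interval -0.19 to 0.14), a ratio between 0.876 and 1.105. The dimmer probe set read 4.73, 4.65, 4.60 and 4.84 on the wild-type arrays and 5.01, 4.86 and 4.73 on the hypomorph arrays, a change of 0.16 (-0.05 to 0.38, unadjusted p = 0.119). Hypomorph replicates 1 and 2 were above every wild-type array there. Without hypomorph replicate 3 the change was 0.23 (unadjusted p = 0.0482, limma adjusted p = 0.767), and without replicate 1 it was 0.09. The probe sets differed in sign, and both intervals lay within a 1.5-fold change.

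**Figure D3:**
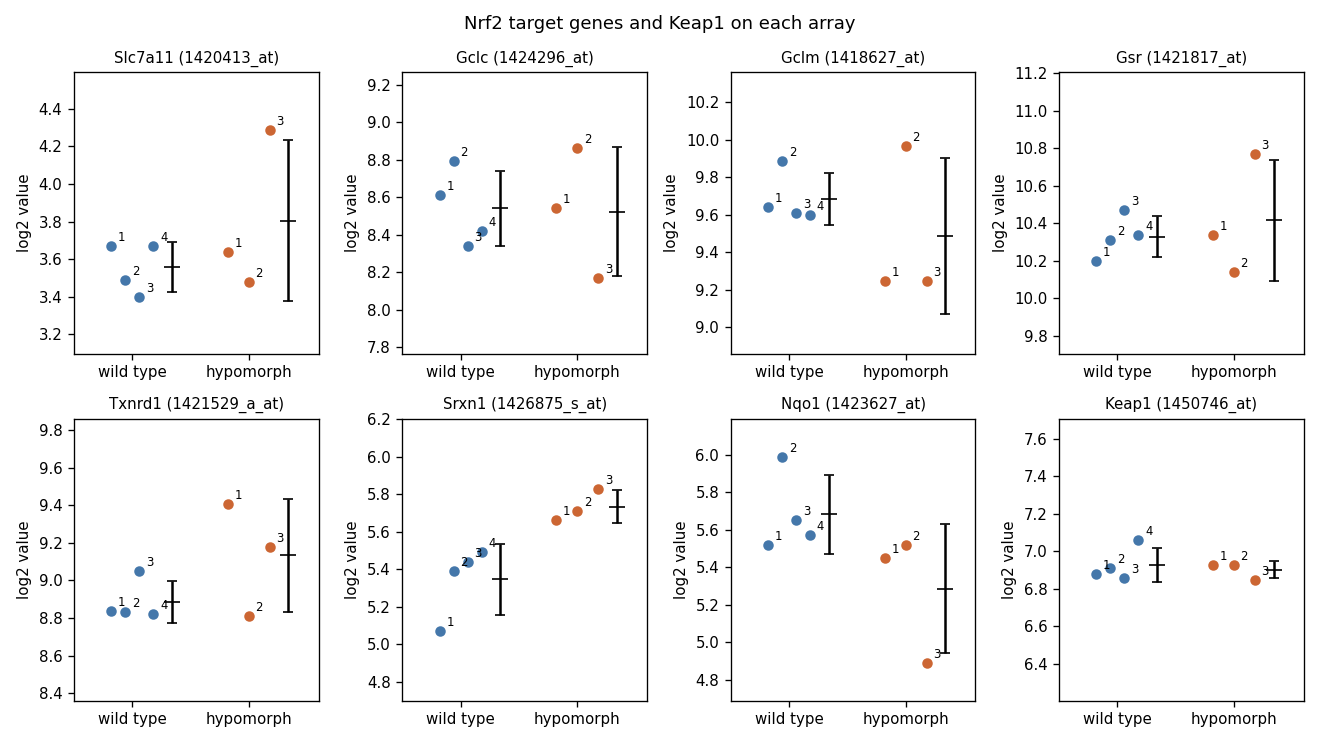
Log2 value (vertical axis, with the same span in every panel) of the brightest probe set of each of the 8 members on 4 wild-type arrays (blue) and 3 hypomorph arrays (orange); numbers are replicates, and black bars give the mean and SD. Srxn1 alone has groups that do not overlap, and hypomorph replicates 2 and 3 lie at opposite ends for Gclc, Gclm and Gsr.

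The hypomorph arrays differed among themselves more than the wild-type arrays for most members. The SD over the hypomorph arrays was larger than over the wild-type arrays for 12 of the 16 member probe sets, or 75.0%, against 51.9% of all probe sets. Hypomorph replicate 3 was the highest of the 7 arrays for 3 members (Slc7a11, Gsr and Srxn1). It was the lowest for 4 (Gclc, Gclm, Nqo1 and Keap1), with Gclm rounding to 9.25 on hypomorph replicate 1 as well. Over all probe sets this array also had the lowest mean correlation with the other arrays (0.99) and the lowest array weight (0.69). The share of all genes that were highest or lowest on it was not counted, so this is not a trait of the members alone. From hypomorph replicate 2 to replicate 3 the log2 value was higher by 0.81 for Slc7a11 and 0.63 for Gsr, and lower by a difference of -0.73 for Gclm, -0.70 for Gclc and -0.64 for Nqo1. Keap1 and Srxn1 were the exceptions, with a hypomorph range of 0.08 and 0.18 against 0.21 and 0.42 in wild type.

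Like Keap1, the other regulators of the pathway did not pass the test (limma, adjusted p). Nfe2l2 had the same mean in both genotypes, 9.12 ± 0.0621 (wild type, SD, n = 4) and 9.12 ± 0.156 (hypomorph, SD, n = 3), with a 95% confidence interval of the log2 change from -0.20 to 0.20. Bach1, a repressor that competes with Nrf2 for its sites, had a change of 0.05 (-0.26 to 0.35), and -0.10 without hypomorph replicate 3. Mafg, a small Maf partner of both, had a change of 0.25 (-0.03 to 0.53) with its brighter probe set, and 0.11 without hypomorph replicate 3. Its dimmer probe set gave -0.03, and the mean over both gave 0.11 (unadjusted p = 0.308). Sqstm1, itself a target of Nrf2, read 8.84, 8.91, 8.91 and 8.88 on the wild-type arrays and 9.25, 8.90 and 9.27 on the hypomorph arrays. Hypomorph replicates 1 and 3 were above all wild-type arrays, while hypomorph replicate 2 lay among them. Its change was 0.25 (0.02 to 0.49, unadjusted p = 0.0364, limma adjusted p = 0.644). It came to 0.38 without hypomorph replicate 2, to 0.20 without replicate 1 and to 0.19 without replicate 3 with an unadjusted p = 0.125 without replicate 1 or 3. Over the 9 regulators measured of 10 listed, 6 changes were positive and 3 negative.

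A wider list of 78 genes of the same system, of which 71 were measured, was balanced in direction. There were 36 positive and 35 negative changes with a median of 0.00, against 49.2% positive over all genes. No gene passed the threshold in limma, and at an unadjusted p under 0.05 there was 1 higher and 3 lower, where 3.57% and 3.59% of all genes were higher and lower at this level. By the brightest probe set, the 3 lower genes were Txnrd3 (-0.37), Tkt (-0.19) and Gsta4 (-0.44), and the higher one was Sqstm1. The medians of the 7 role groups lay between -0.05 and 0.09.

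**Figure D4:**
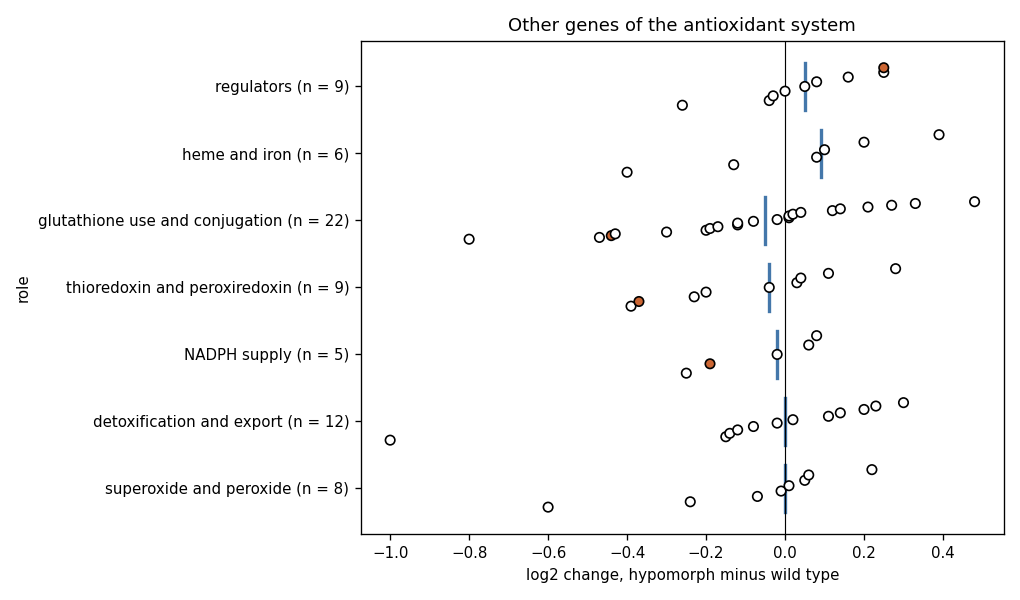
Log2 change from wild type to hypomorph (horizontal axis) of the brightest probe set of each of 71 other genes of the antioxidant system, by role (vertical axis, with the number of genes); filled points have an unadjusted limma p under 0.05 and blue bars are group medians. Each group lies on both sides of 0, with medians between -0.05 and 0.09.

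Among heme and iron genes, Hmox1, the inducible heme oxygenase and a target of both Nrf2 and Bach1, varied most between arrays. It read 8.91, 11.05, 9.16 and 10.71 on the wild-type arrays and 10.37, 9.71 and 10.95 on the hypomorph arrays. The wild-type arrays alone spanned the hypomorph values, and the log2 change was 0.39 (-0.95 to 1.72), or 0.04 without wild-type replicate 1 and 0.75 without wild-type replicate 2. Red pulp macrophage markers come from cells that recycle heme. Their medians were -0.51, 0.19, -0.11 and 0.42 on the wild-type arrays and 0.31, 0.16 and 0.28 on the hypomorph arrays. None of these markers was among the dimmest 25% of all probe sets. Their part in the Hmox1 values was not tested. Fth1, the ferritin heavy chain, had a change of 0.20 (-0.03 to 0.43), and 0.31 without hypomorph replicate 2.

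In the list of NADPH supply, Tkt encodes transketolase, an enzyme of the non-oxidative branch of the pentose phosphate pathway that makes no NADPH itself. It read lower in the hypomorph with both of its probe sets and without overlap, as 2.50% of all probe sets did. The groups nearly touched. The lowest wild-type and highest hypomorph values were 11.86 and 11.85 for the brighter probe set, and both rounded to 10.20 for the other. The log2 changes were -0.19 (-0.37 to -0.01) and -0.28 (-0.50 to -0.06), with an adjusted p = 0.644 in limma for the brighter probe set. Pgd, the phosphogluconate dehydrogenase, which does make NADPH, named after its values were seen, had changes from -0.30 to -0.23 over 4 probe sets. Ncf4, a subunit of the phagocyte NADPH oxidase, which makes superoxide, had a change of -0.60 (-1.23 to 0.03), or -0.31 without hypomorph replicate 1 and -0.96 without hypomorph replicate 3. Of the neutrophil markers, 9 of 10 were measured and none was among the dimmest 25% of all probe sets. Their medians were -0.05, -0.01, 0.09 and 0.04 on the wild-type arrays and -0.65, -0.53 and 0.06 on the hypomorph arrays. Relative to the wild-type mean, hypomorph replicates 1, 2 and 3 were at -1.19, -0.73 and 0.11 for Ncf4, at -0.52, -0.41 and 0.18 for Pgd and at -0.28, -0.21 and -0.09 for Tkt. The part of neutrophils in these values was not tested.

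In the glutathione and thioredoxin groups, Gpx3, a secreted glutathione peroxidase, had no overlap between the groups and a change of 0.48 (-0.06 to 1.01), or 0.25 without wild-type replicate 1. Txn1, thioredoxin itself, had a change of 0.11 (-0.08 to 0.30). Txnrd3, a thioredoxin and glutathione reductase, had a change of -0.37 (-0.71 to -0.03) with its brightest probe set, and -0.20 without hypomorph replicate 2. Its other probe sets gave 0.03 and -0.06, and the mean over all of them gave -0.13 (unadjusted p = 0.279). Gsta4, a glutathione transferase for lipid aldehydes, had a change of -0.44 (-0.89 to -0.00, unadjusted p = 0.0489). Mgst3, Prdx2 and Aldh1a1, singled out after their values were seen, followed the erythroid markers on the hypomorph arrays. Replicates 1, 2 and 3 were at -1.13, 0.81 and -2.09 for Mgst3, at -0.49, 0.31 and -0.99 for Prdx2, and at -1.05, 0.36 and -2.31 for Aldh1a1, against -0.83, 0.60 and -2.02 for the median of the erythroid list, whose part in these values was not tested.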

How the data were processed

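For each array (Mouse430A), the deposited table holds a log2 value for every probe set, made by the authors from 100 ng of total RNA per the labels' protocols, with Affymetrix Power Tools per the submitters' processing notes. The sources used here do not state how probes were summarised, background-corrected and normalized. Of 22690 probe sets, 64 control probe sets and 1 without a value were left out. Genes came from the platform annotation, updated by Entrez identifier through RefSeq (GRCm38.p6): 20379 probe sets named 1 gene, 691 several and 1555 none. Of the single-gene probe sets, 20350 were found in the RefSeq table.

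Hypomorph and wild type were compared on the deposited log2 values using lmFit and eBayes of limma (version 3.58.1, R version 4.3.3) without trend or robust settings, adjusting over 22625 probe sets with a threshold of 0.05. Confidence intervals are 95% and come from this fit. Exact permutation tests ran over the 35 ways to divide 7 arrays into 4 and 3. The brightest probe set of a gene is that with the highest mean over the 7 arrays. The limma step was tested on simulated data in which all planted changes were larger than those of the members. That test therefore does not show whether changes of the members' size would be found.

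The members and all lists were chosen with earlier results of these data known. Named were all members, Nfe2l2, Bach1, Hmox1, Sqstm1 and Txn1, the 4 other pathway genes with the smallest p in each direction (Slc3a2, Mafg, Gpx3 and Fth1, and Txnrd3, Tkt, Gsta4 and Ncf4), and up to 2 genes per role group. Alternatives changed the normalization, variance model, array weights, replicate block, pseudocount, filter, probe set choice and single arrays. Replicate numbers were not used as pairs in the main fit, only in the alternative with the replicate block. The number of arrays limits the precision.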

Additional observations from a re-analysis of the deposited data

Results flagged for a closer look

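In the group of 4 wild-type arrays, 1 array stood far from the others for 5 of the 29 probe sets examined by Dixon's test. Chance alone flags about 1 in 20 groups, but the share over all probe sets was not counted. Some of the 29 were picked by their p, and some belong to the same gene. The count therefore cannot be read as an excess. Gclm was at 9.89 on wild-type replicate 2, with the nearest wild-type array at 9.64, and the brightest Txnrd1 probe set was at 9.05 on wild-type replicate 3, with the nearest at 8.84. The dimmest Txnrd1 probe set was at 3.62 on wild-type replicate 2, where the other 3 shared the value 3.82. Bach1 was at 8.74 on wild-type replicate 3 (nearest 8.51), and Fth1 was at 13.14 on wild-type replicate 1 (nearest 13.31).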

How the results depend on the processing

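With limma as reported above, 0 of all probe sets were called at an adjusted p of 0.05. There were 5 after centring each array on its median, 5 with trend and robust settings, 5 among the 11312 brighter probe sets, 3 with array weights, and 0 to 2 with single arrays left out. None of these was a member probe set. The count of member probe sets at an unadjusted p under 0.05 was 1, and 2 with median centring (Nqo1 added), 2 with trend and robust settings (another Srxn1 probe set added) and 2 with the replicate block (Nqo1 added). It ran from 1 to 5 with single arrays left out. Of 420 values of single probe sets under the alternatives, 400 kept their sign and 20 did not, those with the sign turned lying between -0.10 and 0.16, and none passed the threshold. The cause was not tested. Gclc was at 0.02 and the Srxn1 probe set at -0.02 was at 0.03 with array weights. Nfe2l2 was at -0.04 with array weights and -0.00 after a further quantile normalization. Keap1 was at 0.07 with the mean over its probe sets and 0.02 with the replicate block. With single arrays left out, ranges that crossed 0 were -0.19 to 0.16 and -0.29 to 0.04 for Gclc, -0.03 to 0.32 and -0.09 to 0.22 for Gsr, -0.10 to 0.07 for that Srxn1 probe set, -0.05 to 0.02 for Keap1, -0.04 to 0.09 for Nfe2l2 and -0.10 to 0.17 for Bach1. The median over members lay between -0.02 and 0.10 in all alternatives. Deviations of same-numbered arrays had correlations of 0.10, 0.098 and 0.34, and those of arrays with unlike numbers ran from -0.26 to 0.21. So few values cannot decide whether the numbers pair the arrays. Slc7a11, near the lower end of the scale, and the 2 Srxn1 probe sets with a value shared by 3 arrays are limited by low signal. With the replicate block, none of the 4 other pathway genes at an unadjusted p under 0.05 stayed there: p was 0.0862 for Sqstm1, 0.112 for Txnrd3, 0.0632 for Tkt and 0.064 for Gsta4.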
